A study of Mus musculus with 6 samples.

Results

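The sterol and fatty acid synthesis genes are 29 genes of the pathways by which cells build cholesterol and long-chain fatty acids from acetyl-CoA. They were taken by symbol: a probe set, the group of short probes that reads 1 transcript on the array, was a member where the platform annotation gave it 1 of these symbols. Of the 29 genes, 20 form the sterol arm and 9 the fatty acid arm, and 28 had a probe set. Acat2 had none under its symbol, so its signal was not analysed here, though its promoter is among those counted below. The 28 genes were read by 65 of the 45037 probe sets other than array controls, 42 in the sterol arm and 23 in the fatty acid arm. A filter on dim probe sets (mean log2 signal over all arrays above the median of all, 6.60) kept 53 of the 65, 35 in the sterol arm and 18 in the fatty acid arm, and at least 1 for each of the 28 genes.

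RNA came from pancreatic islets of OF1 male mice of 10 weeks, an outbred stock, in 3 samples from mice given bisphenol A (BPA) and 3 from control mice given tocopherol-stripped corn oil, each on its own Affymetrix array. BPA binds oestrogen receptors, and the series' title asks what brief exposure does to islets in the living animal. For BPA the design text gives 100 µg/kg/day under the skin as 2 injections of 50 µg/kg for 4 days, with islets taken 16 hours after the last one and 100 µL of oil for controls. The treatment protocol instead has 2 days at that dose. A further label on the BPA samples speaks of 1 nM over 48 hours, and the labels do not settle which applied. No genotype other than the stock is given. The labels call the samples biological replicates, each from 3 independent experiments by the design text, and do not say how many mice entered each. The tests therefore measure the spread between these samples, which may be partly technical.

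In both arms, acetyl-CoA made in the cytosol is the building block. The sterol arm joins it through mevalonate and isoprenoid units into squalene and then lanosterol, which a chain of enzymes turns into cholesterol. The fatty acid arm carboxylates it, lengthens it to palmitate and then elongates and desaturates the chain. The SREBP transcription factors drive both arms: SREBP-2, encoded by Srebf2, mostly the sterol genes, and SREBP-1, encoded by Srebf1, mostly the fatty acid genes. INSIG proteins hold the SREBPs in the endoplasmic reticulum when sterols are plentiful. In islets, lipid supply is known to affect insulin secretion.

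SREBPs bind sterol regulatory elements, usually beside sites of the factors NF-Y and Sp1. The promoters below, from RefSeq (GRCm38.p6, 250 bases before to 50 after the start), belong to Hmgcs1, the only one of the 22 members with a promoter in the table to hold the searched SREBP motif, and to 4 of the genes whose BPA and control arrays did not overlap. Capitals mark the SREBP motif TCACNCCAC, the NF-Y motif CCAAT, the Sp1 motif GGGCGG and the E-box CACGTG, on either strand. No match in these windows overlapped another. The only window given for Acaca, whose BPA and control arrays also did not overlap, held none of these motifs and is not shown. It spans chr11:84195188-84195487, inside the gene, which is placed at 84129635 to 84401651. Sequence before the gene's first base was therefore not searched.

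Hmgcs1 promoter, chr13:119690101-119690400, plus strand: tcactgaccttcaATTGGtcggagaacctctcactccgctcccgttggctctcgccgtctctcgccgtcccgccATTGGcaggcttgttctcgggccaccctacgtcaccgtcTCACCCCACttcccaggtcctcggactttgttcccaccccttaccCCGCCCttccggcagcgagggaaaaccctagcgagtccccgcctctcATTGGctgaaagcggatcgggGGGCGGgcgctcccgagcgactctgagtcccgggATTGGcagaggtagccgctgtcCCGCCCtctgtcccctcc
Srebf2 promoter, chr15:82147019-82147318, plus strand: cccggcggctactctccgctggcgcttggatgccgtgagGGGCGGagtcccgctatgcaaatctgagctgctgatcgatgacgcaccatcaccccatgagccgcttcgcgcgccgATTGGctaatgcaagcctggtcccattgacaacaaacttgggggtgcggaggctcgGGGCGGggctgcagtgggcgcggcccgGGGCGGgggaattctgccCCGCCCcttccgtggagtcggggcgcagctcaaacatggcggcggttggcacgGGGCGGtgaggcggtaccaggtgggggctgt
Mvk promoter, chr5:114444019-114444318, plus strand: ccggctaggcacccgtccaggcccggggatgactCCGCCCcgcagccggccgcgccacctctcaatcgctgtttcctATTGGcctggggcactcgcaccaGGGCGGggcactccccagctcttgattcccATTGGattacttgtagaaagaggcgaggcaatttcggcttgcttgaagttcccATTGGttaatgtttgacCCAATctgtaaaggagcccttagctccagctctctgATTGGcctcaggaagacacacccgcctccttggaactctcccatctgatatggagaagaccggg
Mvd promoter, chr8:122443373-122443672, minus strand: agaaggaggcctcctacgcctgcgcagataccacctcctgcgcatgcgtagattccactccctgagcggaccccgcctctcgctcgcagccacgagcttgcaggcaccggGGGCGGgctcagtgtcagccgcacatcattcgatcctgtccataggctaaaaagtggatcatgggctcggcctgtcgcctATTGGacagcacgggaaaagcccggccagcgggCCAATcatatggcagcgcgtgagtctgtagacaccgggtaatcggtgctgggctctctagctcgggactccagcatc
Fads2 promoter, chr19:10101454-10101753, minus strand: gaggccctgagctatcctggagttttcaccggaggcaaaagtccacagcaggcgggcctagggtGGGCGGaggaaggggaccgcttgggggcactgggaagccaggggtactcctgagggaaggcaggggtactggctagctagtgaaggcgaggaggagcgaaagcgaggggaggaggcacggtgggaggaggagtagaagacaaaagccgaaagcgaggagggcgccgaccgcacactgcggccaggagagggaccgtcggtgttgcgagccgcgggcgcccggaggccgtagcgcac

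RefSeq's table held a promoter for 22 of the 29 genes, 27 windows in all. CCAAT was present in 19 of the 27 windows, against 37.4% of all 32851 promoters, and GGGCGG in 20 of the 27, against 35.7%. Counted by gene, with a match in any window of the gene, each was present for 15 of the 16 sterol genes and 3 of the 6 fatty acid genes in the table. The shares over all promoters are per window, so these counts by gene have no like share beside them. TCACNCCAC was found in the Hmgcs1 window alone of the 27, and in 1.24% of all promoters. In that window it lies at position -137 relative to the start site. CACGTG was found in 4 of the 27 windows, of 4 sterol genes and no fatty acid gene, against 7.15% of all promoters. A match describes the letters and shows no binding.

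The 6 arrays had median log2 signals between 6.55 and 6.65, and their number limits the precision of every value. Islet markers were strong, with group means of 11.08 to 15.29 for the 7 beta cell markers measured. Genes of acinar cells, which are exocrine and not islet cells, were strong too. The mean log2 signal of the 10 acinar genes with a probe set was 12.08 to 13.48 in BPA arrays and 11.41 to 13.21 in control arrays. The samples thus held exocrine RNA beside islet RNA. The replicate 3 arrays of both groups correlated with each other at r = 0.993 over all probe sets, where pairs within a group lay between 0.982 and 0.993. The 3′ minus 5′ difference in log2 signal, a measure of RNA quality and labelling, was, for Gapdh, 2.58 to 2.99 in BPA arrays and 3.40 to 3.79 in control arrays, and for Actb 2.61 to 2.98 in BPA arrays and 3.35 to 3.80 in control arrays. The groups did not overlap on either, and the part of this in the differences below was not tested. In bulk islets, fewer cells of a type and less RNA per cell cannot be told apart.

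BPA against control was tested on all 22518 kept probe sets together. No member passed the test: limma's adjusted p lay between 0.674 and 0.995 for the 53 member probe sets, and 0% of all tested probe sets passed in either direction. At an unadjusted p under 0.05, 4 member probe sets were higher after BPA (7.55% of the 53, against 3.84% of all) and none was lower (against 2.64% of all). Over all probe sets these were 864 higher and 594 lower, or 701 and 728 under cyclic loess scaling. The BPA and control arrays did not overlap for 8 member probe sets with higher signal after BPA, 15.1% against 7.83% of all, and for 1 with lower signal, 1.89% against 4.35% of all. The 8 are from 6 genes, since 3 of them read Fads2, so they are not independent. Without both replicate 3 arrays, 18 of the 53 did not overlap on the higher side and 11 on the lower (34.0% and 20.8%, against 24.6% and 20.5% of all).

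**Figure D1:**
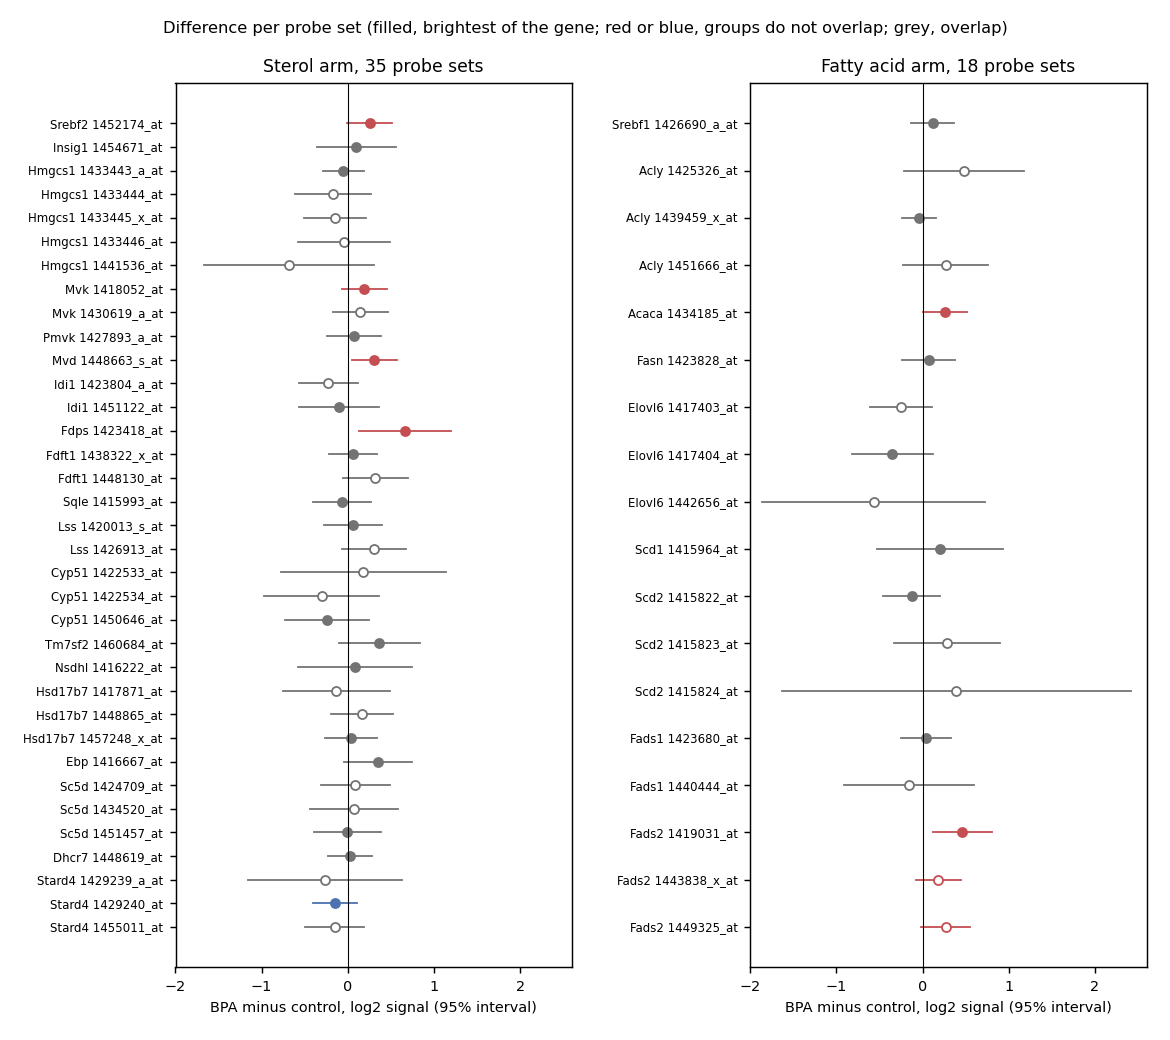
BPA minus control difference in log2 signal for each of the 53 tested member probe sets, with its 95% interval from limma, sterol arm on the left and fatty acid arm on the right. Red marks the 8 with higher and blue the 1 with lower signal in every BPA array than in any control array; the intervals are unadjusted, and all but 4 cross 0.

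Counted by gene, with the brightest kept probe set for each, 13 of 19 sterol genes were higher on average after BPA and 6 lower, with a median difference of 0.063 (log2). Of the 9 fatty acid genes 6 were higher and 3 lower, with a median of 0.069. Of all 11787 genes measured, 57.7% were higher, with a median of 0.028. Neither arm's median held its size: without BPA replicate 1 the sterol median was -0.0030, and without control replicate 3 the fatty acid median was -0.0034.

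Srebf2, the gene of the sterol arm's own activator, had log2 signals of 8.28, 8.47 and 8.35 in BPA arrays, against 8.16, 8.09 and 8.08 in control arrays. All 3 BPA arrays were above all 3 controls, by a small step. The difference was 0.25 ± 0.11 (log2, SE), 1.19 times the control signal, and did not pass (adjusted p = 0.786). A second probe set of Srebf2 lay below the filter and its groups overlapped.

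Insig1, which encodes the sterol-sensing retention protein and is itself an SREBP target, read 8.88, 9.50 and 9.28 in BPA arrays, against 8.92, 9.11 and 9.33 in control arrays. The groups overlapped fully and the replicates of each spread widely. The difference of 0.10 ± 0.19 (SE, adjusted p = 0.944) has a 95% interval of -0.36 to 0.56, so changes of either sign are within reach of the error. It turned to -0.0015 without control replicate 1 and to -0.044 without BPA replicate 2.

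The first steps of the sterol arm make mevalonate and prepare it for the isoprenoid steps. Hmgcs1, whose enzyme makes HMG-CoA, differed by -0.052 ± 0.099 on its brightest probe set (SE, adjusted p = 0.943). All 5 of its tested probe sets had lower means after BPA, between -0.68 and -0.044, and the groups overlapped on each. The probe set with the difference of -0.68 read 5.93, 6.05 and 7.52 in BPA arrays, against 7.03, 7.09 and 7.42 in control arrays, so BPA replicate 3 sat apart from the other BPA arrays.

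Mvk, mevalonate kinase, read 8.96, 9.14 and 8.97 in BPA arrays, against 8.86, 8.84 and 8.79 in control arrays. The groups did not overlap, and the gap between them was narrower than the spread of the BPA arrays. The difference was 0.19 ± 0.11 (SE, adjusted p = 0.832), and the other tested probe set differed by 0.14 with overlap. Pmvk, the next kinase, differed by 0.070 ± 0.132 with overlapping groups.

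Mvd, the decarboxylase that closes the mevalonate section, read 7.64, 7.48 and 7.43 in BPA arrays, against 7.26, 7.16 and 7.20 in control arrays. Every BPA array was above every control. The difference was 0.31 ± 0.11 (SE), 1.24 times the control signal, with an adjusted p of 0.734. A dimmer probe set of Mvd below the filter also did not overlap, at 0.33 (no test).

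Fdps, farnesyl diphosphate synthase, which makes the precursor of both squalene and protein prenyl groups, had the largest difference among the brightest probe sets of the sterol genes. It read 8.55, 7.90 and 7.78 in BPA arrays, against 7.52, 7.52 and 7.20 in control arrays. The groups did not overlap, and BPA replicate 1 was far above the other BPA arrays. The difference was 0.66 ± 0.22 (SE), 1.58 times the control signal, adjusted p = 0.701, and it was 0.43 without BPA replicate 1. Idi1, the isomerase just before it, differed the other way, by -0.099 ± 0.194, with overlap, and by -0.23 on its other probe set.

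The enzymes that make and close squalene showed little difference on their brightest probe sets. Fdft1, squalene synthase, differed by 0.063 ± 0.118, Sqle, squalene epoxidase, by -0.070 ± 0.142, and Lss, lanosterol synthase, by 0.062 ± 0.142 (SE). The groups overlapped for each. Further tested probe sets of Fdft1 and Lss differed by 0.32 and 0.30, also with overlap, so the size depended on the probe set.

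Of the 7 genes measured after lanosterol, 5 were higher on average after BPA and 2 lower, and the groups overlapped for all 7. Tm7sf2, a sterol reductase, read 9.20, 9.19 and 9.57 in BPA arrays, against 8.61, 9.03 and 9.23 in control arrays. Control replicate 3 lay above the 2 lower BPA arrays. The difference was 0.37 ± 0.20 (SE, adjusted p = 0.812), 0.24 without BPA replicate 3 and 0.19 without control replicate 1.

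Ebp, a sterol isomerase, read 10.66, 10.33 and 10.16 in BPA arrays, against 9.99, 10.23 and 9.89 in control arrays. Control replicate 2 lay above BPA replicate 3, the only overlap. The difference was 0.35 ± 0.17 (SE, adjusted p = 0.793), and 0.21 without BPA replicate 1.

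Nsdhl, Hsd17b7, Sc5d and Dhcr7, which encode enzymes that trim, reduce and desaturate the sterol, had differences between -0.0088 and 0.087 on their brightest probe sets. Further tested probe sets differed by -0.13 and 0.16 for Hsd17b7 and by 0.089 and 0.069 for Sc5d, all with overlap. Dhcr7, the reductase of the last step to cholesterol, had all 6 arrays within 0.18, the narrowest of the genes' brightest probe sets, and differed by 0.026 ± 0.106. For Dhcr7 the 95% interval was -0.23 to 0.28.

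Cyp51, the lanosterol demethylase, differed by -0.25 ± 0.21 (SE) on its brightest probe set, with overlap. Control replicate 3 set its values apart in opposite directions: the 3 probe sets read 10.09, 7.47 and 7.29 there, where the other control arrays read 9.33 to 9.47, 6.38 to 6.51 and 8.45 to 8.86. The 3 BPA arrays read 9.31 to 9.46, 6.40 to 6.57 and 8.12 to 8.73 on the same probe sets. So in that array 2 probe sets of Cyp51 were high and the third was low.

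Stard4, which carries sterol between membranes, was the only member with every BPA array below every control. It read 9.38, 9.54 and 9.57 in BPA arrays, against 9.66, 9.66 and 9.61 in control arrays. The gap between the groups was small. The difference was -0.15 ± 0.11 (SE, adjusted p = 0.853), and the 2 other probe sets differed by -0.26 and -0.15 with overlap.

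**Figure D2:**
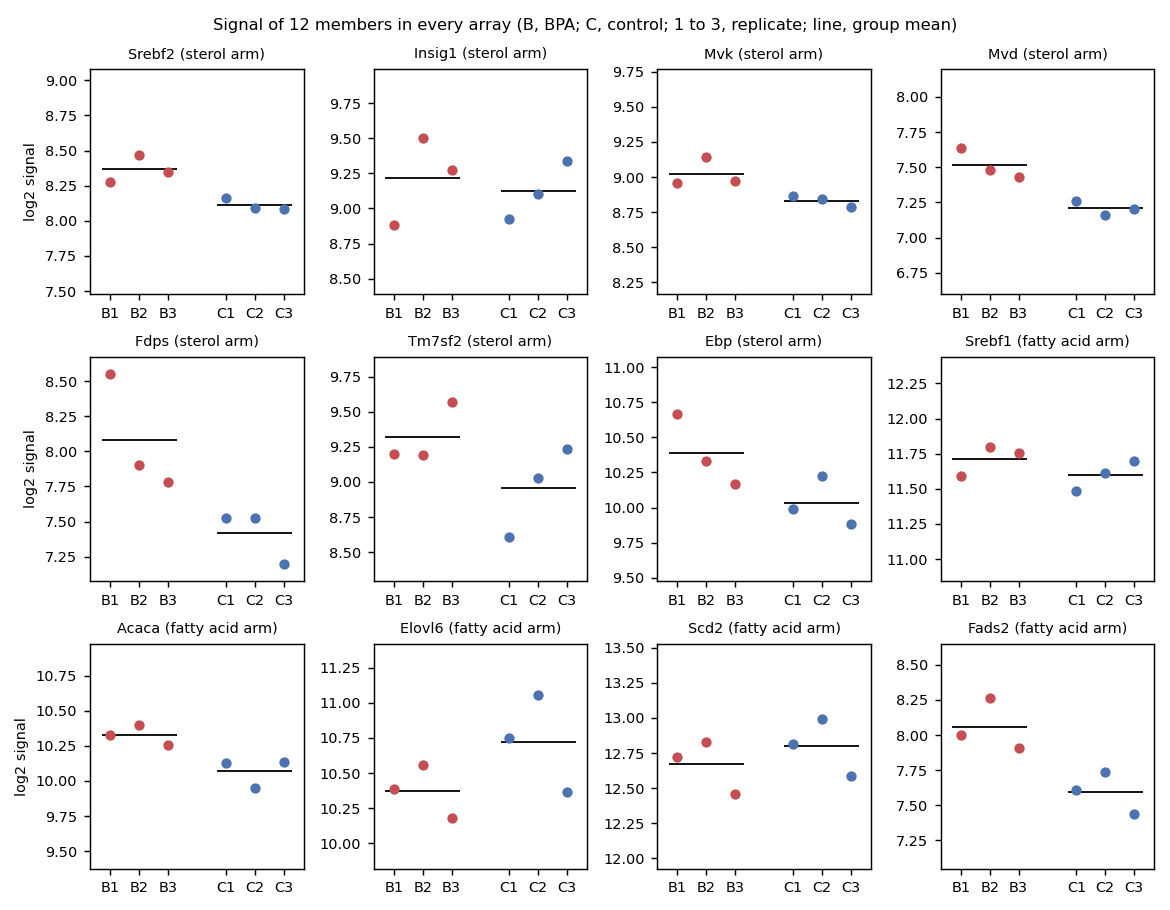
Log2 signal of 12 members in each of the 6 arrays, on the brightest kept probe set of each gene, with BPA arrays on the left of each panel and control arrays on the right; lines are group means and every panel spans 1.6 log2 units. Srebf2, Mvk, Mvd, Fdps, Acaca and Fads2 show no overlap between groups, while Insig1, Tm7sf2, Ebp, Srebf1, Elovl6 and Scd2 do.

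In the fatty acid arm, Srebf1 read 11.59, 11.80 and 11.76 in BPA arrays, against 11.49, 11.61 and 11.70 in control arrays. The groups overlapped. The difference was 0.12 ± 0.10 (SE, adjusted p = 0.879), with a 95% interval of -0.13 to 0.37. It was 0.061 without control replicate 1, 0.077 without BPA replicate 2 and 0.18 without BPA replicate 1.

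Acly makes the acetyl-CoA for both arms from citrate. Its 3 tested probe sets disagreed in sign: the brightest differed by -0.041 ± 0.085 (SE) and the others by 0.48 and 0.27, all with overlap. The brightest read 13.72 to 13.73 in all 3 control arrays and 13.53 to 13.78 in BPA arrays.

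Acaca, the acetyl-CoA carboxylase that commits carbon to fatty acids, read 10.33, 10.40 and 10.26 in BPA arrays, against 10.13, 9.95 and 10.14 in control arrays. Every BPA array was above every control. The difference was 0.26 ± 0.11 (SE), 1.20 times the control signal, adjusted p = 0.768. Fasn, the synthase that follows it, differed by 0.069 ± 0.131 with overlapping groups.

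Elovl6, which lengthens palmitate, was lower on average after BPA on all 3 tested probe sets, and the groups overlapped on each. Its brightest read 10.38, 10.56 and 10.18 in BPA arrays, against 10.75, 11.06 and 10.36 in control arrays. Control replicate 3 was the control that overlapped. The difference was -0.35 ± 0.20 (SE), a control signal 1.27 times that after BPA, adjusted p = 0.832. It was -0.18 without control replicate 2 and -0.53 without control replicate 3.

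Scd1 and Scd2 encode stearoyl-CoA desaturases, which make monounsaturated fatty acids. Scd2 read 12.72, 12.83 and 12.46 in BPA arrays, against 12.81, 12.99 and 12.59 in control arrays, a difference of -0.13 ± 0.14 (SE, adjusted p = 0.897). The groups overlapped over most of their range. The difference was -0.024 without BPA replicate 3, -0.030 without control replicate 2, -0.21 without BPA replicate 2 and -0.23 without control replicate 3. Scd1 differed by 0.21 ± 0.31 with overlap, and its lowest array was control replicate 3, at 8.40 against 9.44 and 9.53 in the other controls.

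Another probe set of Scd2 had the widest spread of any member. It read 9.60, 9.59 and 9.84 in BPA arrays, against 11.09, 9.47 and 7.30 in control arrays. The BPA arrays lay close together inside a control range of 3.80 log2 units. The remaining probe set of Scd2 differed by 0.28, so its probe sets did not share a sign.

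Fads2, which starts the desaturation of essential fatty acids to long polyunsaturated ones, had the smallest p of all members. It read 7.998, 8.26 and 7.91 in BPA arrays, against 7.61, 7.74 and 7.44 in control arrays. Every BPA array was above every control. The difference was 0.46 ± 0.14 (SE), 1.38 times the control signal, adjusted p = 0.674.

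The other 2 probe sets of Fads2 also separated the groups, each by a gap narrower than the spread within either group. The first read 7.34, 7.53 and 7.38 in BPA arrays, against 7.31, 7.17 and 7.22 in control arrays, a difference of 0.18 ± 0.11 (SE). The second read 7.07, 6.78 and 6.93 in BPA arrays, against 6.63, 6.76 and 6.58 in control arrays, a difference of 0.27 ± 0.12 (SE). Fads2 was thus the one member read higher after BPA, without overlap, by 3 probe sets. These read the same RNA samples and none passed, and many members had fewer tested probe sets. Fads1, its neighbour in the pathway, differed by 0.041 ± 0.121 and -0.16 ± 0.32 on its 2 probe sets, with overlap.

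**Figure D3:**
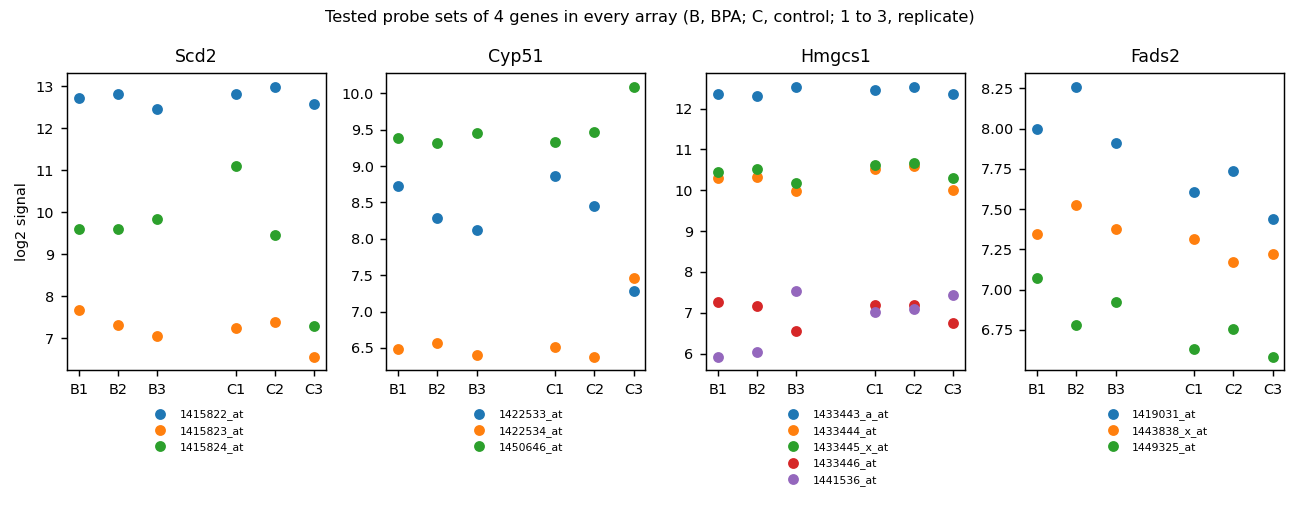
Log2 signal of every tested probe set of Scd2, Cyp51, Hmgcs1 and Fads2 in each array, BPA arrays left and control arrays right in each panel. All 3 Fads2 probe sets separate the groups, the 5 of Hmgcs1 overlap, all 3 of Cyp51 stand apart in control replicate 3, and 1 of Scd2 spreads widely over the control arrays.

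Of the 14 member genes with more than 1 tested probe set, 8 had the same sign on all of them, 4 higher (Mvk, Fdft1, Lss and Fads2) and 4 lower (Hmgcs1, Idi1, Stard4 and Elovl6). The other 6 (Acly, Cyp51, Fads1, Hsd17b7, Sc5d and Scd2) had both signs. The 12 probe sets below the filter had mean signals of 3.27 to 6.58 and differences of -0.21 to 0.33, given with no test. Besides that of Mvd, 1 of Fdft1 did not overlap, at 0.069.

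The level of each arm was followed over the 6 arrays. As the mean over its 19 genes, each relative to its own mean over all arrays, the sterol arm stood at 0.11, 0.07 and -0.02 in BPA replicates 1 to 3, against -0.06, 0.00 and -0.10 in control replicates 1 to 3. BPA replicates 1 and 2 were the highest, while BPA replicate 3 lay among the controls. The mean over all 11787 genes also had BPA replicates 1 and 2 highest and control replicate 3 lowest, over a narrower range, at 0.05, 0.04 and -0.04 in BPA replicates 1 to 3, against -0.0018, -0.0069 and -0.04 in control replicates 1 to 3. The 171 pairs of sterol genes had a mean Pearson correlation of 0.052 over the 6 arrays, with pairs from -0.92 to 0.97, against a mean of 0.030 over all pairs of the 11787 genes. This is a description over 6 points that share their arrays.

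The fatty acid arm stood at 0.03, 0.15 and -0.07 in BPA replicates 1 to 3, against 0.00, 0.09 and -0.20 in control replicates 1 to 3. Replicate 2 was highest and replicate 3 lowest in both groups. Its 36 gene pairs had a mean correlation of 0.198, and the 171 pairs of a sterol with a fatty acid gene one of 0.136. These means depended on the probe set rule: with each gene's probe sets averaged, the mean correlation was 0.097 in the sterol arm and 0.067 in the fatty acid arm. Over 6 arrays such means are loose, and no test was made.

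The replicate 3 array was the lowest of its group, in both groups, for 12 of the 28 genes (42.9%, against 29.4% of all genes measured). These were Idi1, Fdps, Sqle, Nsdhl, Hsd17b7, Ebp and Sc5d in the sterol arm, and Fasn, Elovl6, Scd1, Scd2 and Fads2 in the fatty acid arm. Cyp51 and Tm7sf2 were highest in replicate 3 of both groups (7.14%, against 16.9% of all). The other genes were in neither set: Srebf2, Insig1, Hmgcs1, Mvk, Pmvk, Mvd, Fdft1, Lss, Dhcr7, Stard4, Srebf1, Acly, Acaca and Fads1.

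Within the sterol arm, Ebp (r = 0.95), Fdps (0.81), Mvd (0.75) and Hsd17b7 (0.72) followed the mean of the other sterol genes over the 6 arrays most closely. Stard4 (-0.81) and Cyp51 (-0.74) ran against it. In the fatty acid arm Fasn (0.79) and Scd1 (0.70) followed the mean of the other genes, while Srebf1 (-0.09), Acly (-0.06) and Acaca (0.04) did not. These values are descriptions over 6 arrays.

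**Figure D4:**
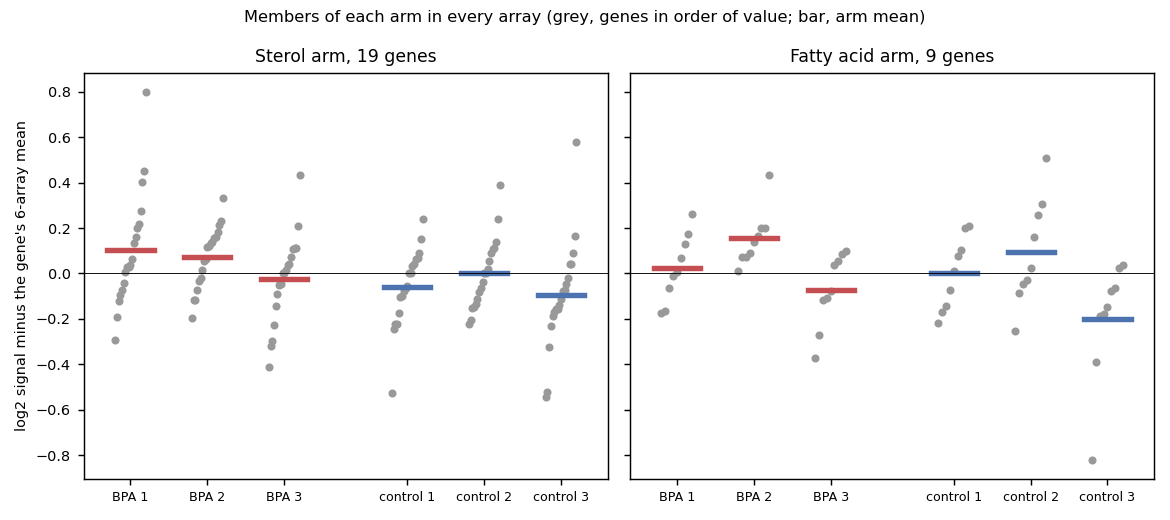
Log2 signal of each gene minus its own mean over the 6 arrays, for 19 sterol genes (left) and 9 fatty acid genes (right), with BPA arrays before control arrays; coloured bars are the arm means. The sterol bars span 0.20 and the fatty acid bars 0.35 log2 units, less than the spread of genes within an array.

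Marker signals of cells other than endocrine cells differed between the arrays. Endocrine markers differed too, with levels from -0.058 to 0.078 for beta and -0.089 to 0.094 for alpha cell markers. Those of delta and PP cells ran from -0.097 to 0.140. Single beta cell markers went both ways: of the 7 measured, 4 had higher means after BPA and 3 lower, and none passed. Ucn3 (0.19) and Iapp (0.066) were higher without overlap, and Pdx1 (-0.21) and G6pc2 (-0.18) lower without overlap. The 9 measured of 12 listed acinar genes, which mark exocrine tissue, stood at 0.88, -0.0014 and -0.53 in BPA replicates 1 to 3, against 0.37, 0.60 and -1.31 in control replicates 1 to 3, lowest like both arms in control replicate 3. Of these 9, 8 had higher means after BPA, with a list median of 0.24. Their part in the arms' levels was not tested. Fat cells express the fatty acid arm strongly, and of 10 fat markers 8 had a probe set and 2 passed the filter. The mean log2 signal of those 8 was 5.82 to 5.96 in BPA arrays and 5.77 to 5.93 in control arrays, and Adipoq, the defining marker, read 4.34 to 4.67 in BPA arrays and 4.20 to 4.40 in control arrays, near the low end of the scale. Fabp4, 1 of the 2 that passed, read 9.92, 9.51 and 10.69 in BPA arrays, against 9.74, 9.95 and 10.68 in control arrays, highest in replicate 3 of both groups. Retn, the other, was also highest there, within 7.19 to 7.42 over all arrays, while Adipoq was lowest there. The 4 measured of 5 endothelial markers stood at -0.12, 0.02 and 0.15 in BPA replicates 1 to 3. In control replicates 1 to 3 these endothelial markers stood at -0.13, 0.02 and 0.06, so they too were highest in replicate 3. The part of fat or endothelial cells in the arms' levels was not tested. Of 6 immune markers, 4 were measured and stood at 0.63 in BPA replicate 1, against -0.28 to 0.033 in the other arrays. Lyz2, a myeloid marker, differed by 1.11 ± 0.52 (SE, adjusted p = 0.793) with overlap, and Cd68, a macrophage marker below the filter, by 1.07 without overlap (no test). C1qa, another macrophage marker, read 9.39, 9.32 and 9.002 in BPA arrays, against 8.61, 8.88 and 8.79 in control arrays, without overlap. The remaining immune markers differed little: Ptprc by -0.045 and Cd74 by 0.098, both with overlap, and Itgam, below the filter, by 0.010 (no test). Of the 4 measured immune markers, 3 had higher means after BPA and 1 lower. Of 7 stellate and fibroblast markers, 6 had higher means after BPA (median 0.24). They stood at 0.33, 0.04 and -0.01 in BPA replicates 1 to 3, against 0.11, 0.05 and -0.52 in control replicates 1 to 3, also lowest in control replicate 3. Of 6 duct markers, 3 were measured and all 3 had higher means after BPA. They stood at 0.62, -0.31 and -0.07 in BPA replicates 1 to 3, against -0.22, 0.13 and -0.16 in control replicates 1 to 3. Muc1 read 8.68 in BPA replicate 1, against 6.27 to 7.40 in the other arrays. Of 5 Schwann cell markers, 2 were measured and both had higher means after BPA. They stood at 0.10, 0.08 and 0.09 in BPA replicates 1 to 3, against 0.0008, 0.10 and -0.38 in control replicates 1 to 3. The part of these cells in the members' differences was not tested.

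Genes beside the members in the same pathways did not pass either. Of 21 genes of sterol uptake, sensing, transport and efflux and further sterol enzymes, 17 were measured: 6 were higher on average after BPA, 11 lower and none passed (median -0.027). Abca1, which exports cholesterol, read 11.67, 11.87 and 11.57 in BPA arrays, against 12.03, 11.98 and 12.05 in control arrays, a difference of -0.32 ± 0.11 (SE, adjusted p = 0.700). All 3 BPA arrays were below all controls. Osbp, an oxysterol-binding transfer protein, differed the other way, by 0.29 ± 0.10 (SE, adjusted p = 0.734), also without overlap.

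Of 27 further genes of fatty acid and lipid synthesis, 24 were measured: 11 were higher, 13 lower and none passed (median -0.0060). The smallest p values belonged to Thrsp, a promoter of lipogenesis in liver and fat, at 0.49 ± 0.22 (SE, adjusted p = 0.791), and to Mlx, the partner of the carbohydrate-sensing factor ChREBP, at 0.42 ± 0.23 (adjusted p = 0.820). Only Thrsp had no overlap between groups.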

How the data were processed

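Islet RNA of 3 BPA and 3 control samples was measured on 1 array each; titles gave group and replicate. The deposited table holds log2 signals as the authors made them. MAS5 is the tool listed, per the submitters' processing notes, with no version. Further steps are not given in the sources used here, which matters most for dim probe sets. No detection calls were used.

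The values were used as deposited. Of 45101 probe sets, 64 array controls were left out, and 22518 with a mean above 6.60 were kept. Genes were named where the platform annotation gave 1 symbol (34945 probe sets), and each gene was represented by its brightest kept probe set. The test was limma's moderated linear model (version 3.58.1, R 4.3.3; trended eBayes, both sides), adjusted over every kept probe set (Benjamini-Hochberg, threshold 0.05). The code was tested on simulated data. Values in every array are given for the 3 regulators, the 5 genes per arm with the smallest p and members whose groups did not overlap. Values or ranges are given for some members whose probe sets disagreed. The last 2 kinds were chosen after their values were seen, and 2 genes are named per list of other pathway genes. The members and lists were chosen with earlier results of these data known. Alternatives were other scalings, filters, eBayes settings and probe set rules, a replicate block and arrays left out. Promoters are RefSeq's (GRCm38.p6).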

Additional observations from a re-analysis of the deposited data

How the results depend on the processing

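No probe set passed under any of the 15 alternatives tried for the test, which limma's smallest adjusted p shows (0.181 to 0.999, 0.655 as reported). At an unadjusted p under 0.05 the counts of 864 higher and 594 lower became 1545 and 1098 with no filter, 452 and 337 with the filter raised to 8.59, 1343 and 1699 with the replicate block and 1253 and 1807 without both replicate 3 arrays. With 1 array left out they ran from 474 to 1352 and from 412 to 1810. The median of the sterol arm ran from -0.0030 (without BPA replicate 1) to 0.089 with 1 array left out. That of the fatty acid arm ran from -0.0034 (without control replicate 3) to 0.125, and was 0.184 when each gene's probe sets were averaged. Insig1 ran from -0.044 to 0.27 with 1 array left out. The cause of these shifts was not tested. The other 10 genes named by the rule kept their sign under every alternative run for them, with Fads2 between 0.36 and 0.54 and Fdps between 0.43 and 0.81. Same-numbered arrays deviated together with correlations of 0.476, 0.078 and 0.706, and BPA replicate 2 correlated best with control replicate 1 (0.397), so the numbers were not treated as pairs. The filter is on the mean over all arrays. With 3 arrays a group, small differences such as those of Insig1 or Dhcr7 are within the error.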

Other observations

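The opposite pathway, fatty acid oxidation, was measured by 14 of 15 listed genes, of which 9 were higher on average after BPA and 5 lower, with a median of 0.034 (log2) and none past limma's test. Hadha, a subunit of the mitochondrial trifunctional protein, read 9.13, 9.18 and 8.91 in BPA arrays, against 8.50, 8.78 and 8.63 in control arrays, a difference of 0.44 ± 0.13 (SE, adjusted p = 0.674). Every BPA array was above every control. Hadhb, the other subunit of the same enzyme, differed the other way, by -0.27 ± 0.14 (SE, adjusted p = 0.796), also without overlap. Etfb, a subunit of the electron transfer flavoprotein, differed by 0.46 ± 0.19 with overlapping groups. Cpt1a, which admits long-chain fatty acids to mitochondria, read 9.33, 9.43 and 9.39 in BPA arrays, against 9.65, 9.66 and 9.56 in control arrays. All 3 BPA arrays were below all controls, and the difference was -0.24 ± 0.10 (SE, adjusted p = 0.777). Hadhb and Cpt1a were named after their values were seen.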
